A study of Mus musculus with 4 samples.

Results

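Immunoglobulin heavy chain V segments (Ighv) are the gene segments that supply the variable domain of an antibody heavy chain. They were examined in regulatory T cells of mouse spleen, on 1-colour expression arrays. The members are all transcript clusters (the array's unit of measurement, a set of probes summarised to 1 value) with exactly 1 gene symbol starting with Ighv and a number, which gave 112 of the 65528 clusters on the array. Of these, 103 had the symbol listed once and 9 had the same symbol listed repeatedly. A further 8 clusters carried an Ighv symbol together with another gene and were left out. The 112 members fall into 15 V families, the number before the hyphen in the symbol, of which family 1 is the largest with 61 members. All lie on chromosome 12 by their cluster identifiers. RefSeq (GRCm38.p6) types 109 of them as V segments and 3 as V segment pseudogenes.

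Each of the 4 arrays held RNA of CD4 T cells that were enriched magnetically from spleen and then sorted by green fluorescence (mice of 7 to 8 weeks, 15000 to 40000 cells). All mice carried the FOXP3-CRE transgene of strain B6-Tg(Foxp3EGFP-cre)1cJbs/J, which makes Cre recombinase and a green fluorescent protein where Foxp3 is active. In the group labelled WT (replicates 1 and 3) the transgene was on C57BL/6, and in the group labelled KO (replicates 1 and 2) it was combined with BMI1-flox C57BL/6. Bmi1 encodes a subunit of Polycomb repressive complex 1, and the design compares cells with and without it. The sample titles and the treatment field describe unstimulated cells, whereas the series text describes 24 hours of stimulation through CD3 and CD28. The labels give neither the number of floxed alleles nor the number of animals behind an array. Separate animals per array are not stated, so a p-value reflects just the spread between these arrays, which may be technical, and their number limits the precision.

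The variable domain of an antibody heavy chain is encoded by an exon assembled from a V, a D and a J segment by the RAG recombinase in developing B cells. Each V segment has its own promoter and leader exon, and unrearranged V segments can be transcribed in early B cells before they recombine. A V family is defined by sequence similarity, so members of a family share much of their sequence, and whether a probe set reads more than its named segment was not tested. Developing T cells rearrange their receptor loci in the thymus, and mature T cells do not secrete antibody. In the array data, Ighv1-62-2 and Ighv1-71 had the same value on each of the 4 arrays (4.38, 3.47, 3.92 and 3.87), so these clusters amount to 1 measurement.

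Values are deposited log2 expression values, on which a difference of 1 is a 2-fold change. The array medians over all clusters lay between 4.65 and 4.72. Bmi1 read 8.98 and 8.98 in the arrays labelled WT and 9.58 and 9.91 in the arrays labelled KO, a difference of 0.77 (SE 0.16, limma adjusted p 0.292), which goes against the label. The sources do not say which exons its cluster covers. Every direction given here follows the labels, and groups are named as arrays labelled WT or labelled KO. The regulatory T cell markers were bright, with Cd3d, a subunit of the T cell receptor complex, between 17.44 and 17.62 and 0 of 9 measured markers below the array median. Cd3d is not particular to regulatory T cells, and Foxp3 had no cluster with a symbol of its own and was not measured.

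Most heavy chain V segments read higher in the arrays labelled KO. The difference, KO minus WT, was above 0 for 92 of the 112 members (82.1%) and below 0 for 20, whereas 51.1% of the 30390 clusters with 1 gene symbol were above 0. The median difference of the members was 0.48, against 0.01 over all clusters tested. Both arrays labelled KO lay above both arrays labelled WT for 69 members (61.6%), against 21.0% of all clusters tested. The opposite separation was seen for 7 members (6.25%), against 17.5% of all clusters, and the arrays of the groups overlapped for the other 36. A difference of at least 2-fold was reached by 17 members upward, against 0.388% of all clusters, and by 1 member downward, against 0.286%.

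No member passed the test across all clusters. In limma, with Benjamini-Hochberg adjustment over 30390 clusters, 0 members had an adjusted p under 0.05 in either direction, while 0.00658% of all clusters were called higher and 0% lower. The smallest adjusted p of a member was 0.102. At an unadjusted limma p under 0.05 there were 53 members higher (47.3%), against 6.40% of all clusters, and 2 lower, against 3.78%. For a segment taken alone, the smallest two-sided p that exact permutation of the 4 arrays allows is 0.333. When only the brighter clusters were tested (mean at or above that of the median cluster, 63 members among them), 5 members of family 1 had a limma adjusted p under 0.05 upward, against 0.0658% of those clusters, and 0 downward, against 0.0263%. The mean was taken over all 4 arrays, so 10 of the 63 members, Ighv1-64 of the 5 among them, passed only through the arrays labelled KO, and nothing is drawn from this count. Leaving out 1 array at a time gave median differences of the members from 0.39 (without WT replicate 3) to 0.52 (without WT replicate 1).

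The shift was carried mainly by family 1, the large family known in older nomenclature as J558. Its 61 members had a median difference of 0.67, with 56 above 0 and 5 below. Both arrays labelled KO exceeded both arrays labelled WT for 48 of them (78.7%), the reverse held for 1 (Ighv1-81), and 12 overlapped. An unadjusted limma p under 0.05 was reached by 43 members upward and by 0 downward. The family's median level was 4.76 and 4.62 in WT replicates 1 and 3, and 5.46 and 5.66 in KO replicates 1 and 2. The 51 members of all other families had a median difference of 0.15, with 36 above 0 (70.6%, against 51.1% of all clusters tested). Of them, 21 were separated upward (41.2%, against 21.0%) and 6 downward (11.8%, against 17.5%). At an unadjusted limma p under 0.05 there were 10 upward (19.6%, against 6.40%) and 2 downward (3.92%, against 3.78%).

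**Figure D1:**
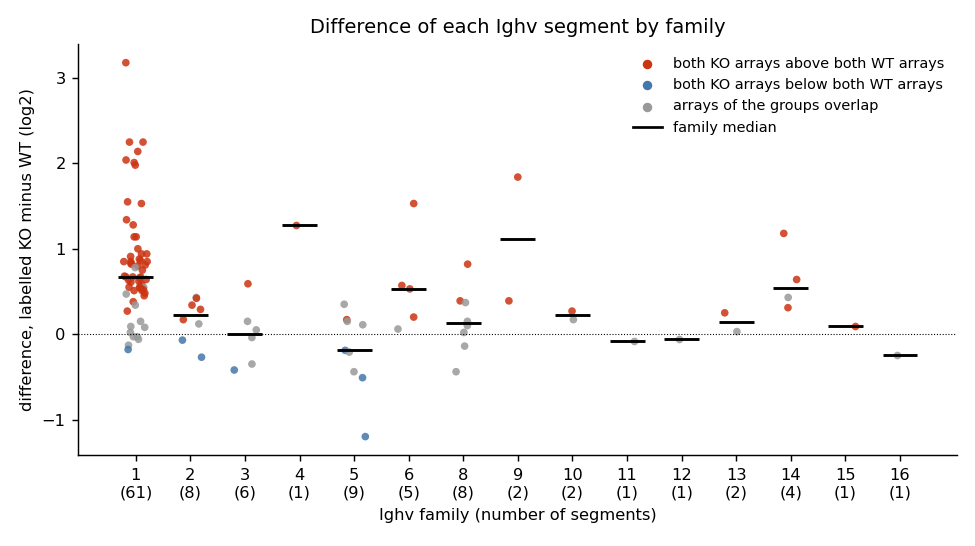
Each point is 1 Ighv segment, placed by V family on the horizontal axis and by its difference (labelled KO minus labelled WT, log2) on the vertical axis; colour shows whether the 4 arrays separate by group and the bar is the family median. Family 1 has a median of 0.67 and reaches 3.18, while family 5 has a median of -0.19.

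Ighv1-2 had the largest difference of all members. It read 10.51 and 10.01 in WT replicates 1 and 3, and 13.16 and 13.72 in KO replicates 1 and 2. The arrays labelled KO were far above the others, by 3.18 (SE 0.26), 9.06-fold, and the 95% interval ran from 2.53 to 3.83 (limma adjusted p 0.117). RefSeq types this segment as a pseudogene, which cannot encode a functional heavy chain.

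Ighv1-69 read 7.48 and 7.31 in the arrays labelled WT and 9.47 and 9.82 in those labelled KO, a difference of 2.25 (SE 0.17, 4.76-fold). For Ighv1-55 the values were 5.98 and 5.57 against 7.88 and 8.17, also a difference of 2.25 (SE 0.19). Ighv1-53 read 6.44 and 6.53 against 8.56 and 8.36, a difference of 1.98 (SE 0.13, 3.93-fold). In these segments the gap between groups was many times the gap between arrays of a group. Ighv1-64 read 4.19 and 3.93, below the array median, in the arrays labelled WT, and 6.27 and 5.92 in those labelled KO, a difference of 2.04 (SE 0.16). The table has no background measure, so a difference that starts below the array median can understate the change. Limma adjusted p was 0.102 for Ighv1-53 and 0.117 for the other three.

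Other members of family 1 with large differences varied more between arrays of a group. Ighv1-76 read 4.55 and 4.74 in the arrays labelled WT, but 5.83 and 7.74 in KO replicates 1 and 2, a difference of 2.14 (SE 0.60) in which the array KO replicate 2 stands out. Ighv1-83 read 5.54 and 4.53 against 6.79 and 7.29, a difference of 2.01 (SE 0.36). Ighv1-73 read 6.67 and 5.54 against 7.39 and 7.87, a difference of 1.53 (SE 0.40). For both segments WT replicate 1 was the higher array of its group and still lay below both arrays labelled KO. Ighv1-5 read 6.34 and 6.10 against 7.46 and 8.07, a difference of 1.55 (SE 0.23), and Ighv1-14 read 6.87 and 6.41 against 7.73 and 8.23, a difference of 1.34 (SE 0.24). Limma adjusted p for these 5 lay between 0.251 and 0.375.

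The middle of family 1 showed smaller differences in the same direction. From the lower to the upper quartile its differences ran from 0.51 to 0.94. Ighv1-52 is an example with close arrays (4.64 and 4.62 against 5.48 and 5.66, difference 0.94, SE 0.10, limma adjusted p 0.143), and so is Ighv1-50 (3.89 and 3.76 against 4.53 and 4.46, difference 0.67, SE 0.09, limma adjusted p 0.216). Both were picked after their values were seen, as segments with close arrays, and Ighv1-52 lies at the upper quartile. The 5 members of family 1 below 0 were Ighv1-81, Ighv1-22, Ighv1-9 and the pair with equal values, Ighv1-62-2 and Ighv1-71. Ighv1-81 read 4.16 and 4.15 against 3.92 and 4.02, a difference of -0.18 (SE 0.08, limma adjusted p 0.529). For Ighv1-19 the arrays labelled WT spanned 6.24 to 7.82 and enclosed both arrays labelled KO (7.31 and 7.04).

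**Figure D2:**
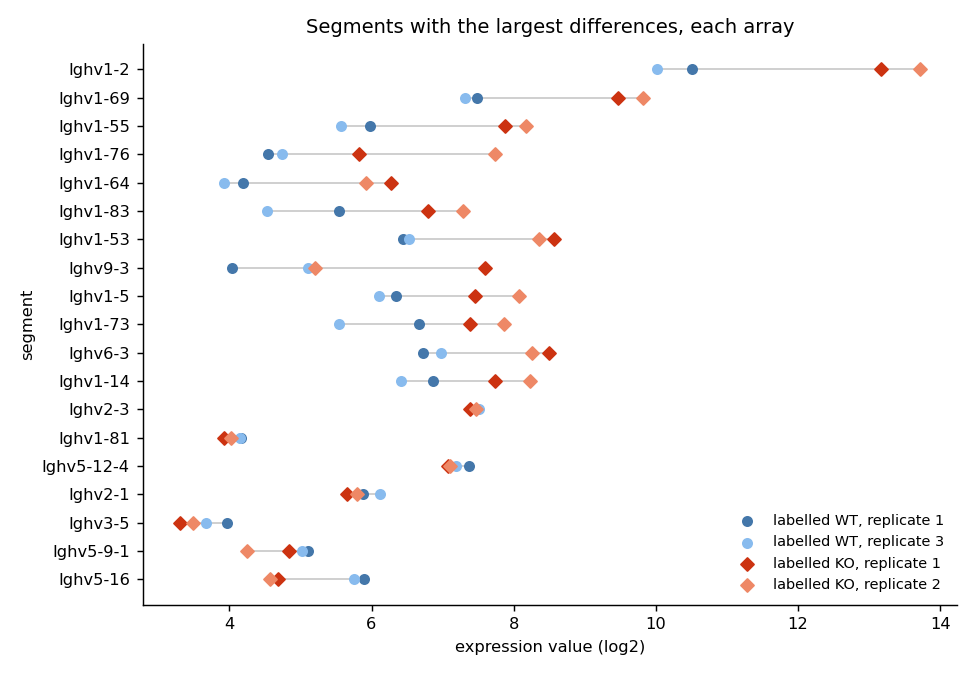
Expression values (log2, horizontal axis) of each of the 4 arrays for the 12 segments with the largest positive difference among those with separated arrays and the 7 lower segments whose arrays do not overlap between groups, sorted by difference; circles are arrays labelled WT and diamonds arrays labelled KO. Ighv1-2 shows the widest separation (10.01 to 10.51 against 13.16 to 13.72), and Ighv9-3 the widest spread between the arrays labelled KO (7.60 and 5.21).

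In all, 7 members had both arrays labelled KO below both arrays labelled WT, and 3 of them belong to family 5. Ighv5-16 read 5.89 and 5.76 in the arrays labelled WT and 4.68 and 4.57 in the arrays labelled KO. Its difference of -1.20 (SE 0.10), 0.435 times, had a limma adjusted p of 0.117, and the 95% interval ran from -1.46 to -0.94. Ighv5-9-1 read 5.10 and 5.02 against 4.84 and 4.25, a difference of -0.51 (SE 0.20). Ighv5-12-4 read 7.37 and 7.19 against 7.07 and 7.11, a difference of -0.19 (SE 0.13). The remaining members with this separation were Ighv3-5 (-0.42, SE 0.13), the pseudogene Ighv2-1 (-0.27, SE 0.13), Ighv1-81 and Ighv2-3 (-0.07, SE 0.12). Apart from Ighv5-16 these are small differences, with limma adjusted p between 0.404 and 0.896.

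The families other than family 1 differed among themselves. Family 5, with 9 members, had a median of -0.19, with 4 members above 0 and 5 below. Its median was 0.22 without KO replicate 2 and -0.45 without KO replicate 1, so its sign rested on which array labelled KO was kept. In 8 of the 9 members KO replicate 1 read above KO replicate 2, most of all in Ighv5-17 (6.17 and 3.93, with 4.45 and 4.95 in the arrays labelled WT) and Ighv5-4 (6.82 and 5.06, with 6.71 and 6.05). Family 2, with 8 members, had a median of 0.23 and family 3, with 6, a median of 0.00. Leaving out 1 array gave medians of 0.09 (KO replicate 2) to 0.26 (KO replicate 1) in family 2 and of -0.13 (KO replicate 1) to 0.09 (KO replicate 2) in family 3. In family 2 the differences ran only from -0.27 to 0.43, and Ighv2-5 read 9.71 and 9.69 against 9.68 and 9.96. In family 3 only Ighv3-1 was separated upward (5.82 and 5.86 against 6.23 and 6.62, difference 0.59, SE 0.16).

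Families 6, 9 and 14 had members with larger differences. All 5 members of family 6 were above 0, with a median of 0.53, and 4 were separated upward (80.0%, against 21.0% of all clusters tested). Ighv6-3 read 6.72 and 6.98 against 8.50 and 8.25, a difference of 1.53 (SE 0.16, limma adjusted p 0.140). The 4 members of family 14 were also above 0 (median 0.54), led by Ighv14-2 with 6.06 and 6.70 against 7.45 and 7.66 (difference 1.18, SE 0.24). Ighv4-1, the only member of family 4, read 6.06 and 6.43 against 7.09 and 7.95, a difference of 1.28 (SE 0.31). Ighv9-3 read 4.04 and 5.10 against 7.60 and 5.21, so its difference of 1.84 (SE 0.82) came from KO replicate 1, and KO replicate 2 lay just above WT replicate 3.

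Smaller differences were measured in the remaining families. The 8 members of family 8 had a median of 0.12 and all of them lay, by their mean, below the median cluster tested. That median was -0.01 without KO replicate 2 and 0.26 without KO replicate 1. In that family 2 members were separated upward. Ighv8-14 read 3.06 and 3.22 against 3.94 and 3.98 (difference 0.82, SE 0.09, limma adjusted p 0.140). Ighv8-9 read 4.45 and 4.17 against 4.79 and 4.61 (difference 0.39, SE 0.13, limma adjusted p 0.427). The brightest of the family, Ighv8-13, read 4.78 and 4.85 against 4.84 and 5.08. In family 10, Ighv10-1 read 7.66 and 7.54 against 7.87 and 7.86, and in family 13, Ighv13-2 read 5.44 and 5.26 against 5.01 and 5.74. The families with 1 member were at -0.08 (Ighv11-1), -0.06 (Ighv12-3), 0.10 (Ighv15-2) and -0.25 (Ighv16-1). Ighv11-1 is a case in which replicates, not groups, stood apart, with 4.50 and 6.01 in the arrays labelled WT and 4.36 and 5.98 in the arrays labelled KO.

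Family and place along the locus are linked, because family 1 fills the end of the locus farthest from the D and J segments. RefSeq lists 183 Ighv genes on chromosome 12, and the members were ordered among them, counting from the segment nearest to the D segments. Ighv1-2, at place 74, is the first member of family 1. The 71 members from Ighv1-2 onward had a median difference of 0.63, with 65 above 0 and 52 separated upward (73.2%, against 21.0% of all clusters tested). The 41 members before it had a median of 0.15, with 27 above 0 and 17 separated upward (41.5%). Within family 1 the medians were 0.57, 0.76 and 0.77 in its 21 nearest, 20 middle and 20 farthest members.

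Family 8 lies interspersed with family 1 and allows a comparison at like places. From Ighv1-2 onward, 10 members lie outside family 1, of which 9 were above 0 and 4 separated upward (40.0%), with a median of 0.16. Of these, 7 belong to family 8, with 6 above 0, 2 separated upward (28.6%) and a median of 0.15. In family 1, 56 of 61 members were above 0 and 48 separated upward (78.7%), with a median of 0.67. Over all clusters tested, 51.1% were above 0 and 21.0% separated upward. Without KO replicate 2 the medians of these whole families were -0.01 and 0.63, and without KO replicate 1 they were 0.26 and 0.80. The members of family 8 are dim, so family 1 was also taken by level. Its 28 members below the median cluster had a median of 0.54 and 20 were separated upward. Among the 21 dim members of all other families the median was 0.15, with 7 separated upward, and 1977 of all 15195 dimmer clusters were separated upward. The level is a mean over all 4 arrays, so a segment's difference helps decide its side: 9 members of family 1 counted as brighter had a WT mean below the cut. These are descriptions of segments that share sequence and arrays, and no test was made between families.

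**Figure D3:**
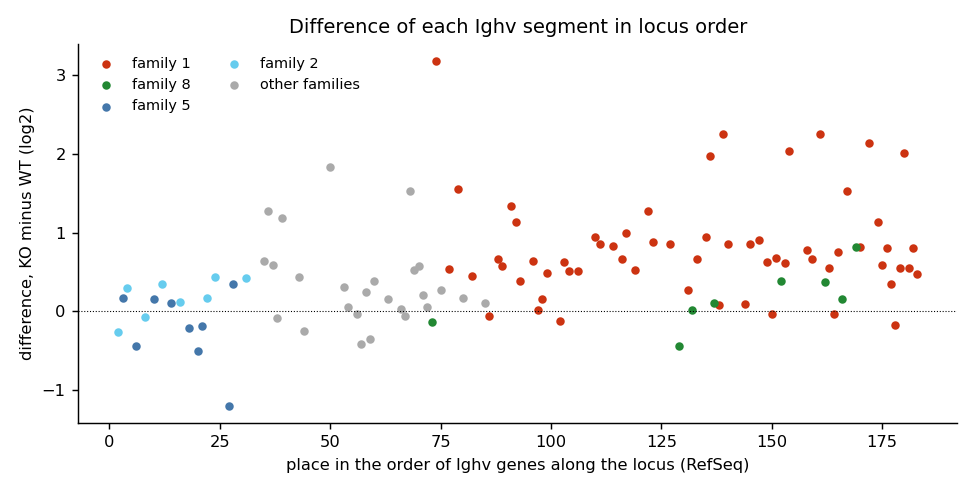
Each point is 1 Ighv segment at its place in the RefSeq order of Ighv genes along the locus (horizontal axis, place 1 nearest to the D segments) with its difference (labelled KO minus WT, log2) on the vertical axis. Family 1 starts at place 74 with Ighv1-2 (3.18), and members of family 8 between its segments lie at a median of 0.15.

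Near the other end of the locus, families 2 and 5 alternate. The 17 members up to Ighv2-9 had a median of 0.12, with 5 separated upward and 5 downward (29.4% each). Over all clusters tested these shares were 21.0% upward and 17.5% downward. Between Ighv2-9 and Ighv1-2 the 24 members had a median of 0.23, with 12 separated upward (50.0%) and 1 downward (4.17%). A short run in that stretch was picked after its values were seen: Ighv14-1 (0.64), Ighv4-1 (1.28), Ighv3-1 (0.59), Ighv11-1 (-0.08) and Ighv14-2 (1.18) are neighbours at places 35 to 39 and belong to 4 families. In 4 of these 5 neighbours the arrays were separated upward.

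The segments varied more between arrays of a group than most clusters did. The gap between the arrays labelled WT exceeded 0.5 for 26 members (23.2%), against 5.75% of all clusters tested. Between the arrays labelled KO it exceeded 0.5 for 32 members (28.6%), against 3.94%. These shares were 24.4% and 30.2% for kappa light chain V segments, and 23.5% and 12.9% for the T cell receptor alpha V segments. A gap above 1 was found for 7 members in the arrays labelled WT and for 12 in those labelled KO. The difference between groups was larger than both gaps for 58 members upward, against 15.3% of all clusters. Of the 58, 43 were in family 1.

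**Figure D4:**
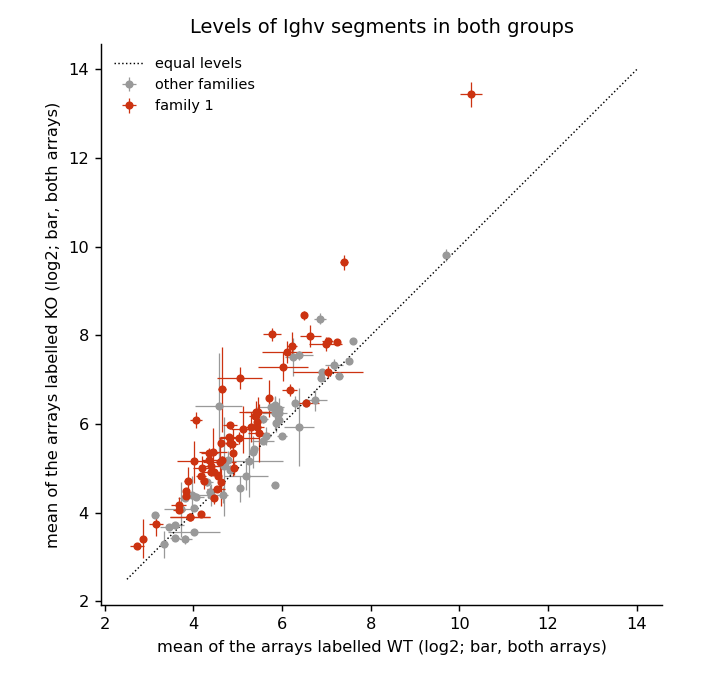
Mean level of each Ighv segment in the arrays labelled WT (horizontal axis, log2) against the arrays labelled KO (vertical axis, log2), with bars that reach both arrays of a group; red marks family 1 and the dotted line equal levels. Of the 61 members of family 1, 56 lie above the line, with Ighv1-2 at 10.26 and 13.44.

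Among constant region genes of the heavy chain, 4 of the 8 listed had a cluster of their own, and their differences were unequal. Ighg2b, which encodes the constant region of IgG2b, read 5.62 and 5.63 in the arrays labelled WT and 7.51 and 7.36 in those labelled KO, a difference of 1.81 (SE 0.12, 3.51-fold, limma adjusted p 0.102). Ighm, the constant region of IgM, was bright in all arrays (17.00 and 17.05 against 17.08 and 17.23) and differed by 0.13 (SE 0.07, 95% interval -0.04 to 0.30). Ighg1 differed by 0.21 (SE 0.17), with 1 array labelled KO above and the other below the arrays labelled WT, and Ighe read 4.01 and 4.09 against 3.96 and 4.19. The listed light chain constant genes had no cluster with a symbol of their own. The levels of Ighm say nothing of which V segment, if any, is joined to it.

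Genes of antibody-secreting cells were mixed in direction. Of 14 measured, 9 were above 0 and 5 below, with a median of 0.11, and 4 were separated upward (28.6%, against 21.0% of all clusters tested). Jchain, which links IgM or IgA units, read 6.62 and 6.47 against 7.66 and 7.49, a difference of 1.03 (SE 0.13, limma adjusted p 0.204). Mzb1, which helps antibody assembly in the endoplasmic reticulum, read 4.50 and 4.62 against 4.90 and 5.01 (difference 0.40, SE 0.10, limma adjusted p 0.347). Derl3 read 4.25 and 4.35 against 4.69 and 4.44, and Eaf2 read 4.72 and 4.59 against 4.78 and 4.79. The mean log2 level of the list was 6.51 and 6.68 in the arrays labelled WT and 6.76 and 6.75 in those labelled KO. The summed linear level of the list was 5721 to 7012 in the arrays labelled WT and 6088 to 7031 in those labelled KO. Xbp1 (10.98 to 11.50), Creld2 (10.60 to 11.03) and Sec11c (10.28 to 10.68) made up most of this sum. Their arrays overlapped between groups, so the sum says little of dimmer genes such as Jchain. Sdc1, Tnfrsf17 and Fkbp11 lay below the array median on all arrays. The part of such cells in the V segment differences was not tested, and in bulk samples more cells of a type and more RNA per cell cannot be told apart.

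B cell markers had a median difference of -0.02. Of 14 measured, 4 were above 0 and 8 below, with 0 separated upward and 3 downward (21.4%, near the 17.5% of all clusters tested). Ms4a1, which encodes CD20, read 4.23 and 4.36 against 4.09 and 4.21, Vpreb3 read 4.43 and 4.59 against 4.37 and 4.28, and Cd79b, a subunit of the B cell receptor, read 7.53 and 7.91 against 7.42 and 7.64. Cd72 read 6.89 and 7.04 against 6.65 and 6.53 (difference -0.37, SE 0.12, limma adjusted p 0.424). The summed linear level was 575 to 671 in the arrays labelled WT and 547 to 580 in those labelled KO. Of the 14 markers, 9 lay below the array median on all arrays, Pax5, Ebf1 and Ms4a1 among them.

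Other genes that act in antibody formation differed little or in mixed directions. Pou2af1, a coactivator that works with octamer-binding factors at immunoglobulin promoters, read 5.05 and 4.98 against 4.85 and 5.06. Among recombination genes, Rag2 differed by 0.15 (SE 0.11), Dntt, which adds nucleotides at the joints, by 0.19 (SE 0.12) and Ung, a repair enzyme of class switching, by 0.11 (SE 0.10). All 3 surrogate light chain genes were below 0, with a median of -0.11. Of 8 antibody Fc receptor genes, 4 were above 0. Fcmr, the receptor for IgM, read 7.05 and 7.51 against 6.21 and 6.05, a difference of -1.15 (SE 0.19, limma adjusted p 0.275). Of 10 macrophage and monocyte markers 4 were above 0 (summed level 203 to 223 in the arrays labelled WT and 225 to 225 in those labelled KO), and of 5 dendritic cell markers 0 were (120 to 124 and 116 to 116).

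Markers of other lymphocytes and T cells differed in both directions. The 4 NK cell markers had a summed level of 184 to 206 in the arrays labelled WT and 247 to 437 in those labelled KO, but without Eomes it was 72.8 to 85.8 and 77.7 to 81.8. Eomes, a T-box factor of NK and CD8 T cells, read 6.80 and 6.91 against 7.37 and 8.49 (difference 1.08, SE 0.37, limma adjusted p 0.433). Of the 2 CD8 markers, Cd8b1 read 9.74 and 10.78 against 10.71 and 11.26, with overlapping arrays, and Cd8a read 4.12 and 4.23 against 4.08 and 4.07. Of 9 measured regulatory T cell markers, 6 were above 0 and 3 below, with a median difference of 0.05. Among them 4 were separated upward (44.4%, against 21.0% of all clusters tested) and 2 downward (22.2%, against 17.5%). The largest difference of that list was in Cd3e, part of the T cell receptor complex. It read 16.28 and 16.32 against 16.91 and 16.82, a difference of 0.57 (SE 0.06, limma adjusted p 0.140). How these markers relate to the V segments was not tested.

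V segments of other receptor loci were taken the same way for comparison. The 86 kappa light chain V segments had a median difference of 0.16, with 64 above 0 (74.4%, against 51.1% of all clusters tested). Of them, 35 were separated upward (40.7%, against 21.0%) and 6 downward (6.98%, against 17.5%). An unadjusted limma p under 0.05 was reached by 23 upward (26.7%, against 6.40%) and 3 downward (3.49%, against 3.78%). Their median levels were 4.69 and 4.65 against 4.92 and 4.86. The 85 T cell receptor alpha V segments, which T cells do use, had a median difference of -0.04, with 24 separated upward (28.2%, against 21.0% of all clusters) and 27 downward (31.8%, against 17.5%). At an unadjusted limma p under 0.05 there were 12 upward (14.1%) and 18 downward (21.2%). The 21 T cell receptor beta V segments had a median difference of 0.08, with 6 separated upward (28.6%) and 3 downward (14.3%). The corresponding shares of heavy chain V segments were 61.6% and 6.25%, and differences between these groups of segments were not tested, since segments are not replicates.

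**Figure D5:**
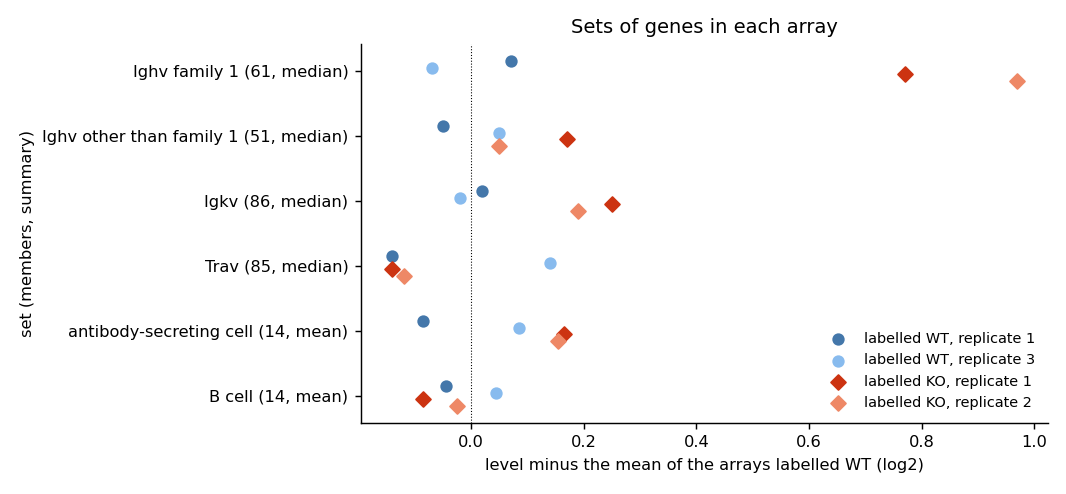
Level of each set of genes in each of the 4 arrays (log2), drawn relative to the mean of the arrays labelled WT, as the median over V segments or the mean over marker lists; arrays are offset vertically to keep points apart. In Ighv family 1 the arrays labelled KO (5.46 and 5.66) lie above the arrays labelled WT (4.76 and 4.62), while B cell markers overlap between groups. The antibody-secreting cell list lies at 6.76 and 6.75 in the arrays labelled KO and at 6.51 and 6.68 in those labelled WT.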

How the data were processed

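The values of 65528 transcript clusters on 4 arrays were used on the log2 scale, as the authors deposited them. The submitters' processing notes name RMA and Transcriptome Analysis Console. For the genome build, the annotation version and the background handling nothing is given in the sources used here. No source states the base of the logarithm: 2 is the one RMA uses, and it fits a range of 1.82 to 19.38. All columns were used.

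Symbols came from the platform annotation: 30390 clusters had 1 distinct symbol, 2127 several, and 33011 were not listed. All 112 Ighv symbols matched RefSeq (GRCm38.p6), used for gene type and order only. Clusters were kept apart, and the 30390 were fitted together in limma 3.58.1 (R 4.3.3; lmFit, eBayes with an intensity trend, two-sided, KO minus WT, threshold 0.05), after a test on simulated data. No filter on dim clusters was applied. A list gene with several clusters was read from the brightest. Groups came from the sample titles; the labels give no batch. A summed linear level adds 2 to the power of each value.

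Named members are those past the threshold, the 12 largest positive and up to 8 most negative differences among members with separated arrays, and the brightest member of each family with several members, and for the lists every gene of the constant region, octamer factor and recombination lists and up to 4 of the other lists by smallest p. Names outside this rule were picked after their values were seen. The members and lists were chosen with earlier results of these data known. Alternatives were other scalings, filters, cluster sets, variance models, member definitions and leaving out each array.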

Additional observations from a re-analysis of the deposited data

How the results depend on the processing

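No paired analysis was possible because the groups share only 1 replicate number. When only clusters at or above a mean of 5.03 were tested, 63 members were left. Their median difference was 0.62, against 0.05 over all those 15195 clusters, and 42 were separated upward (66.7%, against 29.1%). The mean included the arrays labelled KO, so the cut selects partly on the difference itself. A WT mean below the cut was found for 10 of the 63 members, against 176 of the 15195 clusters. A KO mean below it was found for 1 member, against 153 clusters. Nothing is therefore drawn from this median and this share. A limma adjusted p under 0.05 was reached by 5 members, all higher (0.0658% of the 15195 clusters were called higher). The 5 were Ighv1-53, Ighv1-69 and Ighv1-2 (0.0403 each), Ighv1-64 (0.0454, in this test only through its values in the arrays labelled KO, as were 10 of the 63) and Ighv1-55 (0.0482), and fewer clusters were adjusted over; Ighg2b passed too (0.0403). Leaving out each array gave 0 members past the threshold, medians of 0.39 to 0.52 and 76 to 82 separated upward, a count that cannot fall with fewer arrays (67.9% to 73.2%, against 33.3% to 37.9% of all clusters). An alternative chosen after seeing the data, without family 1, left 51 members with a median of 0.15 and 21 separated upward. The other settings gave 0 members past the threshold, medians of 0.47 to 0.50 and 64 to 73 separated upward. Of 492 recomputed differences of 46 named genes, 7 changed sign. Without KO replicate 2 these were Ighv13-2 (-0.34), Ighv2-5 (-0.02) and Ighe (-0.09), without KO replicate 1 Ighg1 (-0.03) and Pou2af1 (0.05), without WT replicate 3 Ighv13-2 (-0.06) and without WT replicate 1 Ighe (-0.01). The highest values of these genes without an array were 0.39 (Ighv13-2), 0.26 (Ighv2-5), 0.44 (Ighg1) and 0.14 (Ighe), and the lowest of Pou2af1 was -0.16. The cause was not tested. With 2 arrays a group and no background measure, small differences of dim segments are not resolved.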
